A study of Pogona vitticeps with 24 samples.

Results

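The 69 genes described here encode proteins of the cytosolic ribosome, 41 of the large subunit (RPL genes, with the stalk genes *RPLP0*, *RPLP1* and *RPLP2*) and 28 of the small subunit (RPS genes). They were chosen by symbol alone among the 11126 genes of the expression table, as RPL, RPLP or RPS followed by a number and at most 1 letter out of A, X, Y and L. Kinases that phosphorylate *RPS6* and relatives whose names end in L1 were thereby left out. The symbol rule itself was set with earlier results of these data known. All 69 passed the filter on low values, which asks for 3 log2 CPM or more on average over the 7 usable columns, as did 9987 genes in all.

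Dental tissue of bearded dragon (*P. vitticeps*) hatchlings was collected by laser capture microdissection while the successional dental lamina was present, the epithelial outgrowth from which replacement teeth form. Groups were *Sca*/+ and WT animals, the posterior jaw position (acrodont in WT, where teeth are fused to the crest of the jaw) and the anterior position (pleurodont in WT, where teeth are attached to the side of the jaw and replaced), and dental epithelium and the mesenchyme around it, which gives 8 groups of 3 samples and 24 samples in all. *Sca*/+ animals are heterozygous for the codominant scaleless mutation at the locus of *EDA*, a TNF family ligand needed for the development of teeth and scales, and the labels name no other allele or treatment. The tissues of a genotype were taken from the same 3 animals. As the study's methods state, the exact dental phenotype of the *Sca*/+ animals was not known before their tissue was processed, although all of them looked abnormal at the front of the lower jaw on rough visual inspection.

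Ribosomal proteins assemble with ribosomal RNA into a small subunit, which binds mRNA and checks the codon, and a large subunit, which joins amino acids. Nearly all of them are needed in equal number in each ribosome, and in mammals their mRNAs start with a terminal oligopyrimidine (TOP) tract through which growth signaling controls their translation as a group. Their mRNAs are among the most abundant of any animal cell.

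The deposited values are log2 CPM, read counts normalized and scaled by the authors, with 1 value per gene and group, named as means. The CPM of a column sum to between 861122 and 1047963, not to the same total. Shares given below were taken of the column sum, so a ratio of shares can differ from a ratio of CPM. No gene has a replicate error, no test was made, and "higher" or "lower" means a difference of at least 1 log2 unit (2-fold). The column of WT posterior epithelium is not a measurement, since it increases by 1e-09 from row to row, and it was left out, so 7 tissues and 9 comparisons remain. Within a column, CPM values are spaced by 1 smallest unit and are whole numbers of it to within 0.0065 CPM, so this unit was taken as 1 count. Counts of 1 library or of pooled reads would be whole in this way. Which of these a column holds, although named as a mean, is not known. The columns hold between 789353 and 3264515 such counts. *Sca*/+ was the deeper column in anterior epithelium (1933710 against 1215536) and posterior mesenchyme (1837779 against 1130499) and the shallower one in anterior mesenchyme (789353 against 1212704). The 95% intervals given below (Clopper-Pearson) come from these counts and cover counting error only, not the spread between animals. Of the markers of the labelled tissues, 8 of 9 epithelial genes were higher in epithelium in WT anterior tissue, 7 in *Sca*/+ anterior tissue and 8 in *Sca*/+ posterior tissue. Of the 12 mesenchymal genes 12, 11 and 12 were lower in epithelium. *EDA* itself had 18.6 CPM in *Sca*/+ against 22.7 CPM in WT anterior epithelium, 16.9 against 5.05 CPM in anterior mesenchyme, and 6.23 against 11.1 CPM in posterior mesenchyme, values that follow no one direction and are no check of the labels.

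Ribosomal protein genes took up a larger share of the summed CPM in *Sca*/+ than in WT tissue at each position and in each compartment that could be compared. Summed over the 69 genes, the share of the column was 9.97% in *Sca*/+ against 5.45% in WT anterior epithelium (95% interval 9.93% to 10.0% against 5.41% to 5.49%). In anterior mesenchyme it was 6.55% in *Sca*/+ against 4.02% in WT, and in posterior mesenchyme 8.31% against 3.66%, a ratio of 1.83, 1.63 and 2.27 in the 3 pairs. *Sca*/+ posterior epithelium, which has no usable WT column, had the largest share of the 7 tissues with 11.1%. Depth moved with the share: within each genotype the deeper column had the larger share, in the 4 *Sca*/+ and in the 3 WT columns. The smallest ratio was in the pair where *Sca*/+ was the shallower column. The WT anterior columns were nearly equal in depth (1215536 in epithelium, 1212704 in mesenchyme) at shares of 5.45% and 4.02%. *Sca*/+ anterior mesenchyme was the shallowest of the 7 columns (789353) and had a larger share than any WT column. *COL1A1*, the gene with the most reads in the mesenchyme columns, also differed. It took 5.4% of the column in *Sca*/+ against 2.31% in WT anterior mesenchyme, and 3.06% against 7.47% in posterior mesenchyme. The parts of depth and of *COL1A1* in the result were not tested. In bulk tissue, fewer cells of a type and less RNA per cell cannot be told apart, and a share of reads does not give the number of ribosomes.

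The median member had 1368 CPM in *Sca*/+ against 613 CPM in WT anterior epithelium, 929 against 468 CPM in anterior mesenchyme, 1231 against 514 CPM in posterior mesenchyme, and 1584 CPM in *Sca*/+ posterior epithelium. The lowest of the 4 *Sca*/+ medians was thus above the highest of the 3 WT medians. On the log2 scale the median member stood at 10.42 in *Sca*/+ against 9.26 in WT anterior epithelium, 9.86 against 8.87 in anterior mesenchyme, and 10.27 against 9.01 in posterior mesenchyme, whereas the median of all genes kept lay between 5.26 and 5.33 in the 7 tissues. Of the 69 members, 58 had their highest value in *Sca*/+ posterior epithelium, 7 in *Sca*/+ anterior epithelium and 4 in *Sca*/+ posterior mesenchyme, which were the highest tissue of 14.6%, 17.6% and 13.0% of all genes kept. The lowest value was in WT anterior mesenchyme for 53 members and in WT posterior mesenchyme for 14 (15.4% and 14.0% of all genes), with *RPLP1* (WT anterior epithelium) and *RPS24* (*Sca*/+ anterior mesenchyme) as the exceptions.

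**Figure D1:**
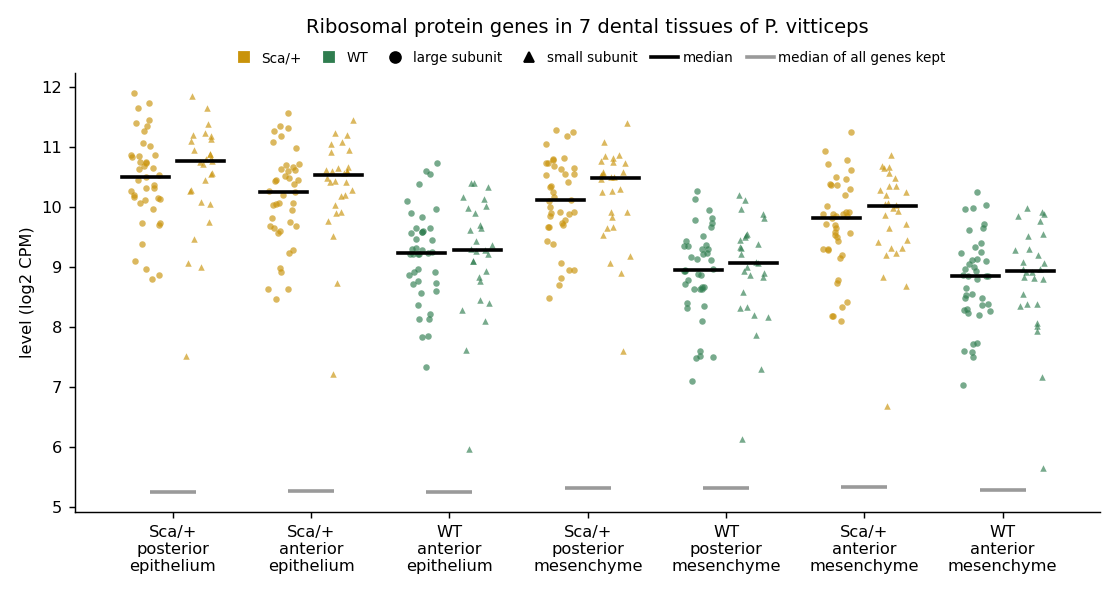
Level of each of the 69 ribosomal protein genes (log2 CPM, vertical axis) in the 7 usable tissues, with circles for large and triangles for small subunit genes, yellow for *Sca*/+ and green for WT, black lines for subunit medians and grey lines for the median of all genes kept. The *Sca*/+ medians of all members run from 9.86 to 10.63 and the WT medians from 8.87 to 9.26, while the grey lines stay between 5.26 and 5.33.

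The comparison of *Sca*/+ with WT asks how the genotypes differ in tissue of the same position and compartment. In anterior epithelium 39 of the 69 members were higher in *Sca*/+, against 12.2% of all genes kept. In anterior mesenchyme 29 were higher, against 11.5% of all genes, and in posterior mesenchyme 54, against 8.82%. No member was lower in *Sca*/+ in any of the 3, where 10.0%, 8.37% and 8.13% of all genes were. In the same order, the median difference of the members was 1.03, 0.96 and 1.18 log2 units, and that of all genes kept 0.00, 0.04 and 0.00.

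The direction was shared by nearly every member. All 69 were above 0 in anterior epithelium (50.3% of all genes), 68 in anterior mesenchyme (52.6%) and 69 in posterior mesenchyme (49.8%), with *RPS24* the exception at -0.05 (interval -0.19 to 0.09). The counting interval lay wholly above 0 for 68, 68 and 69 members, the others being *RPL38* in anterior epithelium and *RPS24* in anterior mesenchyme. Such intervals were not computed for all genes, so these counts have no share of all genes beside them. Members have many counts, and their intervals can leave 0 at small differences. In epithelium both *Sca*/+ columns exceeded the single WT column in 69 members (37.8% of all genes), and in mesenchyme both *Sca*/+ columns exceeded both WT columns in 67 (20.5%), all but *RPL38* and *RPS24*. Both held for 67 of 69 members and 12.7% of all genes, 1265 of 9987. The 3 comparisons use 6 different columns, but their tissues came from the same animals of each genotype and are not independent samples.

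The 2 subunits moved together. The median difference was 1.02 for large and 1.11 for small subunit genes in anterior epithelium, 0.91 and 0.97 in anterior mesenchyme, and 1.11 and 1.25 in posterior mesenchyme. Of the 41 large subunit genes 23, 17 and 31 were higher, and of the 28 small subunit genes 16, 12 and 23. Of all genes kept 12.2%, 11.5% and 8.82% were. The summed CPM of large subunit genes was 1.30 times that of small subunit genes in *Sca*/+ against 1.40 times in WT anterior epithelium, 1.36 against 1.38 in anterior mesenchyme, and 1.37 against 1.38 in posterior mesenchyme, a ratio that does not correct for transcript length.

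**Figure D2:**
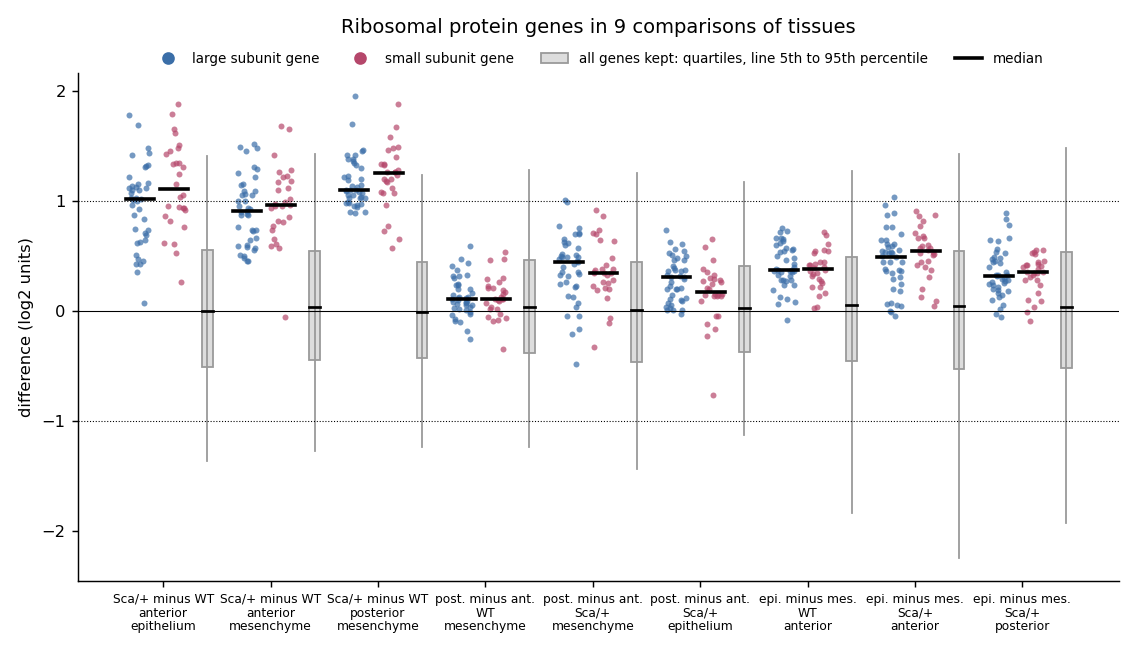
Difference of each member (log2 units, vertical axis) in the 9 comparisons, with blue points for large and pink points for small subunit genes, black lines for their medians, and grey boxes for the quartiles of all genes kept with lines to the 5th and 95th percentile. Members centre near 1 in the 3 comparisons of *Sca*/+ with WT and between 0.11 and 0.53 in the 6 comparisons of position or compartment, of which the WT position one (0.11) turns to -0.15 under another scaling.

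Some values that go with these differences belong beside them, and their part in the result was not tested. Members are short genes, with a median genomic span of 5.78 kb (67 matched by symbol to RefSeq, assembly PviZW2.1) against 30 kb for other genes. Among other genes, too, the shorter ones had the larger difference of *Sca*/+ from WT in all 3 pairs. Their median was 0.63, 0.55 and 0.58 for the 135 genes under 3 kb, 0.35, 0.20 and 0.29 for the 475 genes of 3 to 6 kb, and -0.17, -0.04 and -0.16 for the 2993 genes over 50 kb. The 35 members of 3 to 6 kb had medians of 1.06, 1.00 and 1.18, above the other genes of that class. With each gene centred on the other genes of its span class, the medians of all members became 0.69, 0.73 and 0.89, and the number higher fell to 15, 14 and 26 of the 67 members with a span, against 10.7%, 9.91% and 6.98% of all genes centred in the same way.

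A high level is another property that the members share. The 448 other genes that averaged 8 log2 CPM or more had medians of -0.01, 0.23 and 0.04. Of these 448 genes 35, 44 and 32 were higher in *Sca*/+, against 12.2%, 11.5% and 8.82% of all genes kept. The 94 genes that are also of the members' span had medians of 0.20, 0.41 and 0.42. When CPM were rescaled to the sum of all genes other than ribosomal protein genes, the whole table shifted by -0.19 in anterior mesenchyme, where the members' median became 0.77 and 15 were higher, against 7.92% of all genes. In anterior epithelium the number higher fell from 39 to 32 (10.7% of all genes), and in posterior mesenchyme it rose from 54 to 62 (10.3%).

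**Figure D3:**
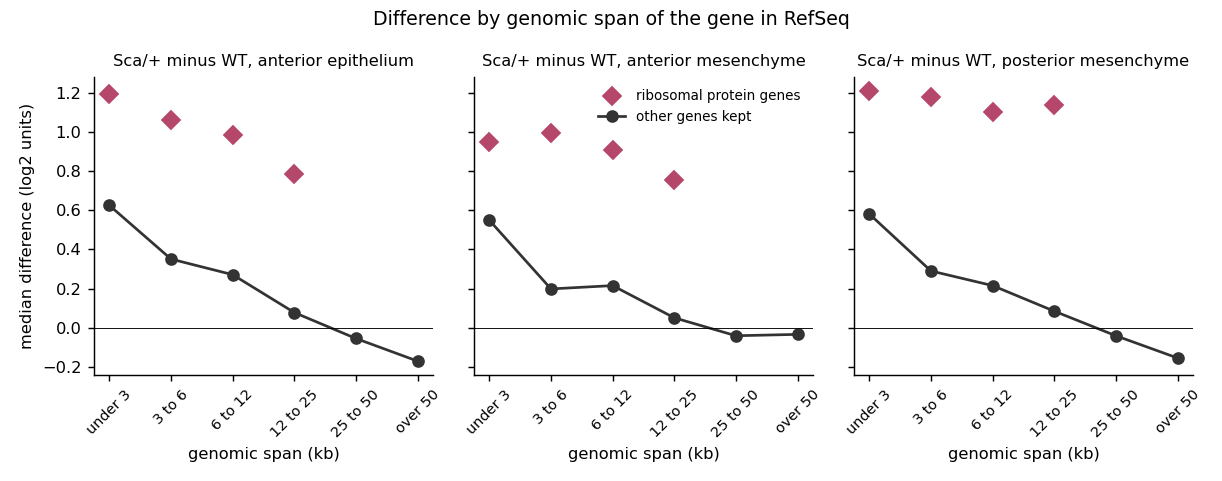
Median difference of *Sca*/+ from WT (log2 units, vertical axis) by genomic span of the gene (kb, horizontal axis) in the 3 pairs of tissues, with pink diamonds for ribosomal protein genes and black points for other genes kept. The black points are highest for genes under 3 kb (0.63, 0.55 and 0.58) and lie below 0 over 50 kb, and the diamonds lie above it in each of the 4 classes that hold members.

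Markers of the cell types that the tissues could hold moved with genotype in part. The 9 epithelial markers in the table (of 12 listed) summed to 14944 CPM in *Sca*/+ against 12104 CPM in WT anterior epithelium, 6116 against 4132 CPM in anterior mesenchyme, and 5405 against 3435 CPM in posterior mesenchyme. Their median difference was 0.17, 0.37 and 0.74, with 0, 0 and 3 of 9 markers past 1 log2 unit. It was above 0 in all 3 pairs like that of the ribosomal proteins, but single markers were less even. Of the 9 markers 6, 7 and 9 were above 0, with *EPCAM* at -0.499 and -0.435 in the anterior pairs. The 12 mesenchymal markers summed to 10140 against 11749 CPM, 120301 against 49100 CPM and 74676 against 148011 CPM. Their sum thus lay above WT in anterior mesenchyme and below it in the other pairs, with 4, 10 and 3 of 12 markers above 0. The median difference of these 12 markers was -0.23, 1.02 and -0.64, with 0, 7 and 0 higher and 2, 1 and 3 lower. Of all genes kept 12.2%, 11.5% and 8.82% were higher and 10.0%, 8.37% and 8.13% lower.

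The 3 leukocyte markers (of 8 listed) summed to less in *Sca*/+ in every pair, 34.2 against 64.5 CPM, 185 against 333 CPM and 93.5 against 95.5 CPM. Single genes went the other way, *CSF1R* in anterior epithelium (0.069 log2 units) and *CD74* in posterior mesenchyme (0.775). The 6 endothelial markers (of 7) summed to 26.4 against 77.9 CPM, 1341 against 1112 CPM and 1754 against 2732 CPM, without a common direction. The 5 markers of bone and dentin (of 8) summed to 535 against 538 CPM, 2061 against 1480 CPM and 5447 against 3702 CPM. Of these 5 markers 3, 4 and 3 were above 0 in the 3 pairs, with *SP7* at -1.03 in posterior mesenchyme. The glial marker *MBP* (1 of 5 listed) had 22.5 against 15.6 CPM, 258 against 187 CPM and 1241 against 1008 CPM, more in *Sca*/+ in every pair. Listed markers that are missing from the expression table could not be read. The part of cell composition in the ribosomal protein result was not tested.

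Members differed among themselves by more than counting error. The standard deviation over members was 0.39, 0.33 and 0.26 log2 units in the 3 genotype comparisons, against a median counting error of 0.06, 0.08 and 0.07. Of the members, 22 were higher in all 3 comparisons, against 1.02% of all genes kept, which makes them 22 of the 102 such genes. Above 0 in all 3 were 68 members and 20.6% of all genes.

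*RPS28*, a small protein of the head of the small subunit, had 733 CPM in *Sca*/+ against 198 CPM in WT anterior epithelium, 455 against 144 CPM in anterior mesenchyme and 581 against 158 CPM in posterior mesenchyme, with 710.5 CPM in *Sca*/+ posterior epithelium. All 4 *Sca*/+ values were more than 2 times any WT value, and its differences were 1.89 (interval 1.71 to 2.08), 1.66 (1.40 to 1.92) and 1.88 (1.65 to 2.13). *RPL28*, a large subunit protein of eukaryotes, had 2169 against 628 CPM, 1414 against 515 CPM and 2310 against 594 CPM, and 2690 CPM in *Sca*/+ posterior epithelium. Its differences were 1.79 (1.68 to 1.89), 1.46 (1.32 to 1.60) and 1.96 (1.84 to 2.08). *RPS10*, on the head near the entry of the mRNA channel, differed by 1.62, 1.42 and 1.49. These 3 genes were the only members at least 0.3 log2 units above the median of the list in all 3 comparisons.

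*RPS24*, a small subunit protein mutated in some patients with Diamond-Blackfan anaemia, was the only member at least 0.3 below that median in all 3. It had 1384 CPM in *Sca*/+ against 1154 CPM in WT anterior epithelium, 846 against 875 CPM in anterior mesenchyme, 1416 against 946 CPM in posterior mesenchyme, and 1804 CPM in *Sca*/+ posterior epithelium. Its *Sca*/+ and WT values therefore overlapped across mesenchyme. *RPL38*, a large subunit protein whose loss causes the *Tail short* skeletal phenotype in mice, had 508 against 482 CPM in anterior epithelium, 441 against 310 CPM in anterior mesenchyme and 878 against 469 CPM in posterior mesenchyme, with 849 CPM in *Sca*/+ posterior epithelium. Its differences were 0.07 (interval -0.07 to 0.22), 0.51 (0.30 to 0.72) and 0.90 (0.76 to 1.05), so that WT posterior mesenchyme stood above *Sca*/+ anterior mesenchyme. *RPL37* (0.35, 0.48 and 1.04) and *RPL27* (0.46, 0.46 and 0.96), both of the large subunit, were also near the low end of the anterior pairs.

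Other members stood out in some pairs and not in others. *RPS14*, a small subunit protein whose loss in humans underlies the anaemia of the 5q- syndrome, had 1172 against 338 CPM in anterior epithelium or 1.79 (1.65 to 1.94), next to *RPS28*, but differed by 0.96 and 1.07 in the mesenchymes. *RPL7A*, of the large subunit, differed by 1.69 and 1.53 in anterior epithelium and mesenchyme and by 1.03 in posterior mesenchyme. *RPS15*, of the head, differed by 1.48 and 1.17 in the anterior pairs and by 0.73 in posterior mesenchyme, and *RPL37A* by 0.51 and 0.45 in the anterior pairs and by 1.47 in posterior mesenchyme.

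The differences of single members were alike between anterior epithelium and anterior mesenchyme. Over the 69 members Pearson's r was 0.77 and Spearman's rho 0.73, given as a description, since the 2 comparisons use 4 different columns but the tissues of the same animals. Against posterior mesenchyme r was 0.49 for anterior epithelium and 0.42 for anterior mesenchyme. Over the 448 other genes of at least 8 log2 CPM, r was 0.64, 0.50 and 0.31 in the same order, so likeness between tissues was not particular to the members.

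**Figure D4:**
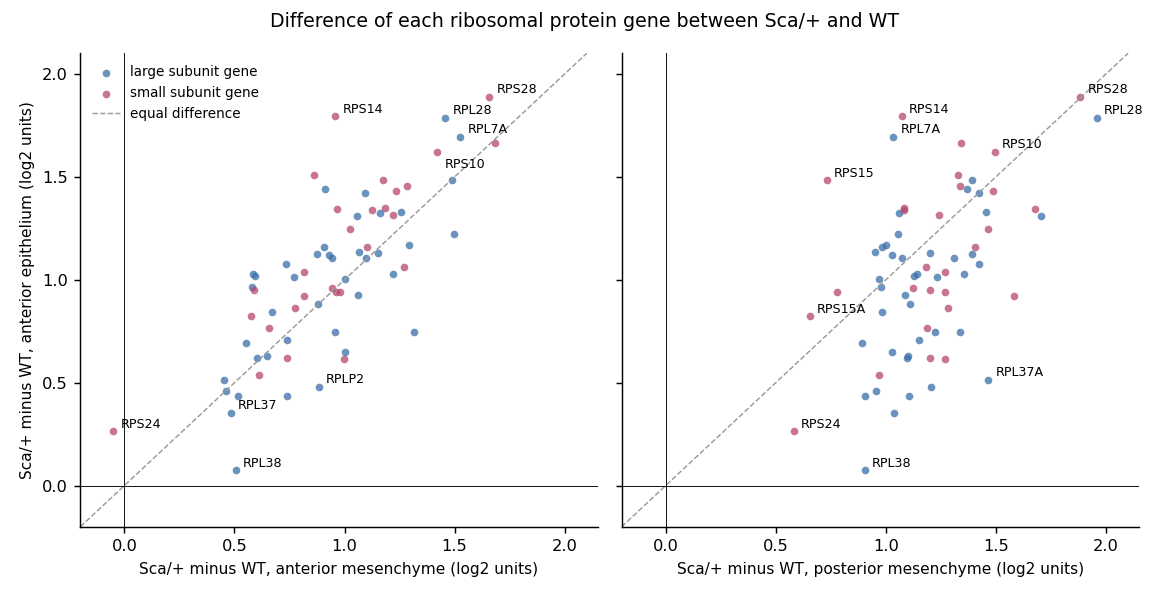
Difference of each member between *Sca*/+ and WT (log2 units) in anterior epithelium (vertical axis) against anterior mesenchyme (left) and posterior mesenchyme (right), with blue points for large and pink points for small subunit genes and a dashed line where both differences are equal. *RPS28* and *RPL28* lie at the upper right in both plots and *RPS24* and *RPL38* at the lower left. The correlation over members is higher on the left (r = 0.77) than on the right (r = 0.49).

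Read by place on the ribosome, every group was above 0. The 3 stalk proteins, which recruit the GTPases of translation, had medians of 1.14, 1.06 and 1.00. *RPLP0*, the base of the stalk, had 2458 CPM in *Sca*/+ against 1093 CPM in WT anterior epithelium, 2444 against 997 CPM in anterior mesenchyme and 1760 against 881 CPM in posterior mesenchyme, with 2473 CPM in *Sca*/+ posterior epithelium. *RPLP1* differed by 1.14, 1.07 and 0.95 and *RPLP2* by 0.48, 0.88 and 1.21, so the order of the stalk genes was not the same in the 3 tissues.

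*RPL5* and *RPL11*, which bind the 5S rRNA together and, when free, bind and inhibit MDM2, differed unequally in anterior tissue. *RPL5* had 2326 against 1503 CPM, 1575 against 1006 CPM and 2118 against 988 CPM in the 3 pairs (0.63, 0.65 and 1.10), and *RPL11* 1171 against 467 CPM, 688 against 307 CPM and 667 against 320 CPM (1.33, 1.16 and 1.06). In anterior epithelium their counting intervals (0.56 to 0.70 and 1.20 to 1.45) did not overlap, and in posterior mesenchyme they did. The 7 proteins around the exit of the peptide tunnel had medians of 1.03, 0.91 and 1.31. Of these 7 genes 6, 2 and 6 were higher, against 12.2%, 11.5% and 8.82% of all genes kept. Those higher included *RPL39* (1.03, 1.22 and 1.14) and *RPL35* (1.31, 1.05 and 1.70).

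On the small subunit, the 13 proteins of the head had medians of 1.35, 1.17 and 1.34 and the 15 of the body 0.94, 0.94 and 1.20. Of the head 10, 9 and 11 were higher and of the body 6, 3 and 12, against 12.2%, 11.5% and 8.82% of all genes kept. *RPS6*, the body protein phosphorylated by S6 kinases, had 1618 against 832 CPM, 1211 against 630 CPM and 1451 against 666 CPM in the 3 pairs, with 1983 CPM in *Sca*/+ posterior epithelium. Its differences of 0.96, 0.94 and 1.12 were close to the list median in each. *RPS19*, the gene most often mutated in Diamond-Blackfan anaemia, differed by 1.46, 1.28 and 1.34, *RPS3*, at the entry of the mRNA channel, by 1.35, 1.18 and 1.08, and *RPS26*, at its exit, by 1.06, 1.27 and 1.18. *RPS27A*, which is made as a fusion with ubiquitin, differed by 1.34, 0.96 and 1.68.

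The 5 members with the largest summed CPM were *RPL4*, *RPL5*, *RPL7*, *RPS3A* and *RPS7*, and without them the share still was 8.59% in *Sca*/+ against 4.59% in WT anterior epithelium, 5.72% against 3.43% in anterior mesenchyme and 7.17% against 3.15% in posterior mesenchyme. *RPL4*, a large subunit protein that lines the peptide tunnel, had 3042 against 1695 CPM, 1945 against 1223 CPM and 2430 against 1230 CPM in the 3 pairs. Its differences of 0.84, 0.67 and 0.98 were below the list median in each. *RPS29*, the member with the fewest reads, had 149 against 63.0 CPM, 103 against 50.5 CPM and 194 against 70.5 CPM, with differences of 1.24 (0.90 to 1.60), 1.02 (0.54 to 1.51) and 1.46 (1.10 to 1.84).

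Ribosomal components that the symbol rule misses had like values. *RPSA*, a small subunit protein also known as a laminin receptor, had 2855 against 1118 CPM, 2402 against 1007 CPM and 2173 against 992 CPM in the 3 pairs (1.35, 1.25 and 1.13). *FAU*, whose product holds a ubiquitin-like domain and a small subunit protein, differed by 1.15, 1.15 and 1.08, and *RACK1*, a scaffold protein on the head of the small subunit, by 1.61, 1.76 and 1.42. By RefSeq gene number, 3 genes that the table lists under a LOC number are *RPS4X* (1.88, 1.36 and 1.27), *RPL17* (1.22, 1.00 and 1.47) and *RPL36A* (1.09, 0.84 and 1.19). The relatives *RPL26L1* (0.58, 0.77 and 1.19) and *RPL7L1* (0.03, -0.62 and 1.79) were less even, and the intervals of *RPL7L1*, at 15.8 to 54.4 CPM, reached across 0 in the anterior pairs. *RPL26*, *RPL29*, *RPL41* and *RPS25* were not analysed here.

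Other genes of protein synthesis were closer to 0 than the ribosomal proteins, apart from a few. The 21 other genes that carry a TOP tract in mammals had medians of 0.37, 0.65 and 0.81. Of these 21 genes 5, 7 and 5 were higher, against 12.2%, 11.5% and 8.82% of all genes kept. *EEF2*, which moves the ribosome along the mRNA, differed by 1.66, 1.51 and 1.11, *EIF3L*, a subunit of an initiation factor, by 1.38, 1.19 and 0.96, and *EEF1D*, a subunit of the exchange factor of elongation, by 1.02, 1.26 and 1.16. *SLC25A5*, the mitochondrial ADP/ATP carrier, differed by 0.86, 1.60 and 1.24. Chosen after their values were seen, *EEF1A1*, which brings aminoacyl-tRNA to the ribosome, differed by 0.43, 0.84 and 0.68, *HNRNPA1*, a splicing regulator, by 0.03, -0.10 and -0.08, and *NPM1*, a nucleolar chaperone, by -0.70, -0.27 and 0.46.

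The lists overlap and are not separate evidence. All initiation and elongation factors of the TOP list, such as *EEF2* and *EIF3L*, are also counted as translation factors. *RACK1*, *NPM1* and *MYC* too each stand in more than 1 list. Beside the counts that follow, 12.2%, 11.5% and 8.82% of all genes kept were higher and 10.0%, 8.37% and 8.13% lower. The 59 translation factors had medians of 0.19, 0.22 and 0.36 with 12, 7 and 5 higher and 2, 1 and 1 lower. They were taken by symbol (EIF or EEF and a digit), which also takes in kinases of these factors. The 1 lower gene was such a kinase in both mesenchymes, *EIF2AK2* in anterior (-1.72) and *EIF2AK1* in posterior tissue (-1.03). The 71 mitochondrial ribosomal proteins had medians of 0.31, 0.21 and 0.50 with 11, 14 and 12 higher and 4, 6 and 1 lower. The 55 genes of oxidative phosphorylation had medians of 0.36, 0.31 and 0.58 with 9, 8 and 13 higher and 3 lower in each. Ribosome biogenesis factors, which build and export the subunits, stood on both sides of 0. The 34 that passed the filter (of 36 listed) had medians of -0.14, -0.26 and 0.41, with 3, 1 and 4 higher and 2, 9 and 3 lower. Among them, *RRP9* differed by -1.63 and -3.28 in the anterior pairs and by 0.80 in posterior mesenchyme. The 14 regulators had medians of 0.06, -0.23 and -0.07, with 3, 3 and 0 higher and 0, 1 and 1 lower. The highest was *TSC2* in the anterior pairs (1.41 and 1.495) and *EIF4EBP1* in posterior mesenchyme (0.42). The lowest were *RPS6KB2* (-0.54), *LARP1* (-1.035) and again *RPS6KB2* (-2.21), in the order of the pairs. *MYC* (1.24, -0.68 and 0.29) and *MTOR* (0.83, -0.71 and -0.10) were not the extremes of the list in any pair. The 57 genes drawn as cytosolic chaperones had medians of -0.12, -0.22 and 0.33. They were taken by symbol, such as HSPA or DNAJ, and not by place in the cell. Medians were -0.35, -0.06 and 0.04 for the 12 proliferation genes and -0.02, -1.16 and 0.10 for the 9 immediate early genes. The 10 genes often used as level controls had medians of 0.40, -0.18 and 0.23.

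**Figure D5:**
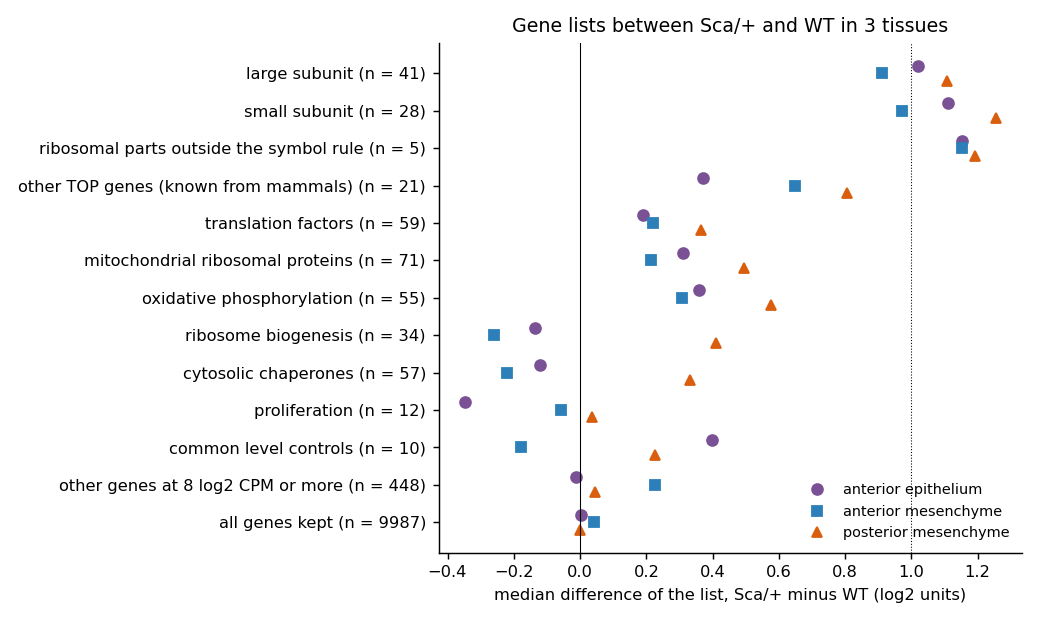
Median difference of *Sca*/+ from WT (log2 units, horizontal axis) of each gene list, the ribosomal protein lists on top and all genes kept at the bottom, with circles for anterior epithelium, squares for anterior mesenchyme and triangles for posterior mesenchyme. Both subunits lie between 0.91 and 1.25, whereas translation factors, mitochondrial ribosomal proteins and genes of oxidative phosphorylation lie between 0.19 and 0.58.

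Comparisons of position ask whether tissue at the posterior jaw differs from the anterior jaw, and they share columns with the comparisons of genotype. In WT mesenchyme the posterior median was 0.11 above the anterior one, while the summed share was 3.66% in posterior against 4.02% in anterior tissue. The direction rests on the scaling: with CPM rescaled to the other genes, which shifts the table by -0.27, the median was -0.15. *COL1A1* alone took 7.47% of the reads of WT posterior mesenchyme and 2.31% of those of WT anterior mesenchyme. None of the 69 members was higher or lower in posterior tissue, against 9.15% and 7.97% of all genes, and 55 were above 0 (52.6% of all genes). The counting interval lay above 0 for 25 members, across 0 for 42 and below 0 for *RPLP0* (-0.18) and *RPS9* (-0.35). The share of all genes was not computed for these counts.

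In *Sca*/+ tissue the posterior level exceeded the anterior one in most members. The median difference was 0.38 in mesenchyme, with 61 members above 0 (50.9% of all genes), and 0.25 in epithelium, with 62 above 0 (52.1%). Only *RPL31*, near the exit of the peptide tunnel, passed 1 log2 unit in posterior *Sca*/+ mesenchyme, with 1692 CPM in posterior against 839 CPM in anterior tissue or 1.01 (0.89 to 1.14, and under 1 when centred on the median of all genes), a comparison in which 8.34% of all genes lay above and 10.4% below the limit. In *Sca*/+ epithelium no member passed the limit, against 7.02% of all genes upward and 6.68% downward. *RPL38* was among the first 2 members in all 3 position comparisons, with 0.60 in WT mesenchyme, 0.99 in *Sca*/+ mesenchyme and 0.74 in *Sca*/+ epithelium.

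A few members went the other way with position. *RPS15* had 514 CPM in posterior against 869 CPM in anterior *Sca*/+ epithelium (-0.76, interval -0.86 to -0.66) and 480 against 602 CPM in *Sca*/+ mesenchyme (-0.33, -0.49 to -0.16). In WT mesenchyme it had 289 against 267 CPM, a difference within counting error (0.11, -0.11 to 0.34). *RPLP0* was the lowest member in *Sca*/+ mesenchyme, with 1760 CPM in posterior against 2444 CPM in anterior tissue (-0.47, -0.56 to -0.39). *RPS9*, of the small subunit body, differed by -0.22 in *Sca*/+ epithelium.

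Comparisons of epithelium with mesenchyme, which share columns with those above, put nearly all members slightly above 0. The median difference was 0.38 in WT anterior, 0.53 in *Sca*/+ anterior and 0.33 in *Sca*/+ posterior tissue, with 68, 67 and 65 of 69 members above 0, against 53.2%, 52.8% and 52.2% of all genes. The summed share was 5.45% in epithelium against 4.02% in mesenchyme of WT anterior tissue, 9.97% against 6.55% in *Sca*/+ anterior tissue, and 11.1% against 8.31% in *Sca*/+ posterior tissue. *RPL3*, close to the catalytic centre of the large subunit, was the only member that was higher, with 2600.0 CPM in epithelium against 1263 CPM in mesenchyme of *Sca*/+ anterior tissue (1.04, interval 0.94 to 1.14, and under 1 when centred on the median of all genes). In that pair 11.5% of all genes were higher, in WT anterior tissue 8.66% and in *Sca*/+ posterior tissue 12.1%.

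No member was lower in epithelium in any pair, where 12.7%, 14.3% and 13.7% of all genes were lower. Rescaled to the other genes, the *Sca*/+ anterior table shifted by 0.17, the median became 0.70 and 7 members were higher, against 15.9% of all genes. The members below 0 were *RPLP1* in WT anterior tissue (-0.07), *RPLP1* and *RPLP2* in *Sca*/+ anterior tissue (0.00 and -0.04), and *RPL23A*, *RPL38*, *RPS23* and *RPS29* in *Sca*/+ posterior tissue (-0.03, -0.05, 0.00 and -0.09). The counting interval reached across 0 for 9, 8 and 9 members and lay below 0 for none, with no share of all genes computed.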

How the data were processed

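RNA from laser-captured dental tissue was sequenced as rRNA-depleted, paired-end libraries, aligned with STAR and normalized with edgeR by the authors, as the study's methods state. The submitters' processing notes also name Trimmomatic, a read trimmer, and versions are not given in the sources used here. The deposited values are log2 CPM per gene, 1 column per group of 3 samples and named as means, so the replicates cannot be compared. Whether a column holds pooled reads or 1 library is not known. Differences were taken between columns of log2 CPM as deposited, tested on simulated data, with no p-value. Counts behind each column were recovered from the smallest step of CPM and used for exact 95% intervals. Genes that averaged 3 log2 CPM or more over the usable columns were kept. Named members are the 3 with the largest and the 3 with the smallest difference per comparison, the 5 highest and the 5 lowest by mean level, and members of known role, of which those that the results turn on are given; a few results are not reported here. From each other list up to 3 genes of largest difference may be named, and a few others are named besides. The members and lists were chosen with earlier results of these data known. Genomic spans came from RefSeq (assembly PviZW2.1). No column of another series was found (0). The work was done in Python 3.11.15 with pandas 2.3.3 and scipy 1.17.1, over numpy 2.4.6, and drawn with matplotlib 3.10.9.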

Additional observations from a re-analysis of the deposited data

How the results depend on the processing

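No paired analysis was possible because each group is 1 deposited column, and leaving out single samples was not possible either. Promoter motifs, transcript lengths and CPM per length were not run. Over 9 comparisons and 7 shares, 400 values stayed on their side, 48 moved, 11 became stronger and 14 weaker, and no call turned its direction. The uncalled WT position median did change sign, and the single calls of position and of compartment were lost under several settings. With no filter, a filter at 5 log2 CPM, wider or narrower lists, members of at least 20 counts, or means in place of medians, all stayed. The cause of the changes below was not tested.

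With higher set at 0.58 log2 units, 60 and 61 members were higher in *Sca*/+ in anterior epithelium and mesenchyme (24.3% and 23.7% of all genes). In posterior mesenchyme 69 were (19.8%). At posterior against anterior position the numbers were 1 in WT mesenchyme, 18 in *Sca*/+ mesenchyme and 5 (with 1 lower) in *Sca*/+ epithelium, against 20.3%, 19.4% and 17.5% (16.4% lower) of all genes. In epithelium against mesenchyme they were 12 in WT anterior, 24 in *Sca*/+ anterior and 6 in *Sca*/+ posterior tissue, against 21.2%, 23.7% and 23.4%. With higher set at 2 log2 units the number was 0 in all comparisons. Of all genes kept, 1.26% were then higher in *Sca*/+ in anterior epithelium, 1.47% in anterior mesenchyme and 0.881% in posterior mesenchyme. In the comparisons of position and compartment, between 0.711% and 2.04% of all genes were higher. At such small shares a count of 0 does not set the members apart from other genes.

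Centred on other genes of the same span, an alternative chosen after seeing the data like the list widened by 3 genes under a LOC number, 15, 14 and 26 members were higher in *Sca*/+ in anterior epithelium and in the anterior and posterior mesenchyme. The medians of all, large and small subunit members were 0.69, 0.68 and 0.80 in the first, 0.73, 0.70 and 0.76 in the next, and 0.89, 0.85 and 0.98 in the last. For position, no member was higher in *Sca*/+ mesenchyme (0), and the small subunit median in *Sca*/+ epithelium was 0.13. For epithelium against mesenchyme the 3 medians were 0.28, 0.29 and 0.28 in WT anterior, 0.39, 0.34 and 0.42 in *Sca*/+ anterior (0 higher), and 0.17, 0.13 and 0.20 in *Sca*/+ posterior tissue.

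With CPM rescaled to other genes, 15 members were higher in *Sca*/+ anterior mesenchyme than in WT, with medians of 0.77, 0.72 and 0.78 for all, large and small subunit members. In anterior epithelium 32 were then higher in *Sca*/+ and in posterior mesenchyme 62 (10.7% and 10.3% of all genes). For position the 3 medians were -0.15, -0.15 and -0.15 in WT mesenchyme, 2 members were higher in *Sca*/+ mesenchyme (8.51% of all genes), and the small subunit median was 0.094 in *Sca*/+ epithelium. For epithelium against mesenchyme they were 0.70, 0.67 and 0.72 with 7 higher in *Sca*/+ anterior tissue, and 0.41 (all) and 0.44 (small) in *Sca*/+ posterior tissue. Centred on the median of all genes, the WT position median was 0.075 and the WT anterior compartment median 0.32 for all and 0.32 for large subunit members. No member was then higher by position in *Sca*/+ mesenchyme (0) or by compartment in *Sca*/+ anterior tissue (0). With trimmed mean scaling the compartment median was 0.34 in WT anterior and 0.27 in *Sca*/+ posterior tissue, and 0 members were higher in *Sca*/+ anterior tissue.

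Of the genes kept alone, the *Sca*/+ shares were 10.1% (anterior epithelium, WT 5.50%), 11.1% (posterior epithelium), 6.60% (anterior mesenchyme) and 8.37% (posterior mesenchyme). Without the 5 members of highest CPM it was 8.59% against 4.59% in anterior epithelium, 9.39% in posterior epithelium of *Sca*/+, 5.72% against 3.43% in anterior mesenchyme, and 7.17% against 3.15% in posterior mesenchyme.

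The deposited columns carry no replicate error, so no difference is set against the spread between animals, and the missing WT posterior epithelium column leaves the genotype at that place not analysed here. Counting error is small for members, which had between 70 and 587 counts for the lowest member of a column. Levels are not divided by transcript length and are not comparable between genes.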

Other observations

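Beside the 22 members, 80 genes were higher in *Sca*/+ in all 3 comparisons, 10 of them at an average of 8 log2 CPM or more. Of these 10, *RPSA*, *RPS4X*, *RPL17*, *FAU* and *RACK1* are parts of the ribosome that the symbol rule misses, and *EEF2* and *EEF1D* are elongation factors. The genes named here were chosen after their values were seen. Several take part in making ribosomes but were in no list: *NOP53* (1.70, 1.39 and 1.32 log2 units in anterior epithelium and in the anterior and posterior mesenchyme), which acts in large subunit processing, *GNL2* (1.34, 1.27 and 1.13), a nucleolar GTPase of the large subunit, and *DHX37* (1.55, 1.94 and 1.31) and *UTP11* (1.06, 1.09 and 1.02), which act in early processing of the small subunit. The fixed list of biogenesis factors, in contrast, had medians of -0.14, -0.26 and 0.41.

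Others were *MLST8*, a subunit of the mTOR complexes (2.27, 2.98 and 1.17, at a mean of 3.99 log2 CPM), *NDUFS7*, a subunit of respiratory complex I (1.12, 1.35 and 1.24), *PSMB4*, a proteasome subunit (1.69, 1.22 and 1.46), and *RHOB*, a small GTPase of the cytoskeleton (2.30, 2.31 and 1.07). *SFN*, an epithelial 14-3-3 protein, differed by 1.78, 1.05 and 1.36. *CRTAC1*, an extracellular matrix protein known from cartilage, had the largest minimum of the 3 differences among these named genes (2.62, 2.74 and 2.49, at a mean of 4.50 log2 CPM).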
